A study of Mus musculus with 6 samples.

Results

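Genes of vascular redox chemistry, 10 in all, were followed through RNA sequencing of mouse aorta: the NADPH oxidase genes Nox1, Nox4, Cybb and Cyba, the superoxide dismutases Sod1, Sod2 and Sod3, and the genes Cat, Nqo1 and Gpx3. They were chosen by symbol with earlier results of these data known, and all 10 were found among the 55487 genes of the deposited table. The study sequenced aortic media and intima, with the adventitia stripped off, from bone marrow chimeras. All mice lacked Apoe (Apoe-/-) and all had received Apoe-/- marrow. The recipients of 3 libraries carried the ChemR23e/e alleles in addition (here called labelled ChemR23-deficient), so that, by the labels, ChemR23 was missing from cells outside the blood lineage, and the recipients of the other 3 were Apoe-/- alone (labelled control). The Cmklr1 gene encodes ChemR23, which binds chemerin and lipid mediators, and mice without Apoe carry high plasma cholesterol and develop atherosclerosis. Every recipient was transplanted at 8 to 10 weeks of age, recovered for 4 weeks and ate a Western diet with 21% fat and 0.15 to 0.2% cholesterol for 6 weeks. The donor marrow leaves macrophages and other blood cells of the plaque with an intact receptor in both groups, and host cells that survive transplantation were not measured. Nothing in the labels says that each library came from a separate animal, so the p-values cover only the spread among these libraries, which may be technical.

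NADPH oxidases pass electrons across a membrane to oxygen and are a regulated source of superoxide and hydrogen peroxide in the vessel wall. Cybb encodes gp91phox (NOX2), the catalytic subunit of the phagocyte oxidase, Nox1 and Nox4 encode homologous catalytic subunits, and Cyba encodes p22phox, the membrane partner that all 3 need. Nox4 is known as the prevailing form in smooth muscle and endothelium, is constitutively active and releases mainly hydrogen peroxide. Superoxide is removed by dismutases in the cytosol (Sod1), in mitochondria (Sod2) and in the extracellular matrix (Sod3), and the hydrogen peroxide they form is broken down by catalase (Cat) and by glutathione peroxidases, of which Gpx3 is the secreted form. Nqo1 encodes a quinone reductase that is a standard target of the transcription factor NRF2.

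The 3 oxidase genes with usable levels are the contrast on which most of the values below turn, and the 250 bases before their RefSeq transcription starts show how unlike their proximal promoters are. The sequences are from RefSeq on GRCm38.p6, read 5′ to 3′ on the strand of the gene. They lie at chr7:87246399-87246648 on the plus strand for Nox4, chrX:9469325-9469574 on the minus strand for Cybb and chr8:122432941-122433190 on the minus strand for Cyba. Capitals mark the searched motifs on either strand, the GC box with the letters GGGCGG and the box named CCAAT.
Nox4: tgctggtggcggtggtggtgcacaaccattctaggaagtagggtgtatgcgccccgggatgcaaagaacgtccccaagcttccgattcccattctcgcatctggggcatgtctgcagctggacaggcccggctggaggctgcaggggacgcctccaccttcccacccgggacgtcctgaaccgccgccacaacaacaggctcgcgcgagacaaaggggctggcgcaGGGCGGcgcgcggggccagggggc
Cybb: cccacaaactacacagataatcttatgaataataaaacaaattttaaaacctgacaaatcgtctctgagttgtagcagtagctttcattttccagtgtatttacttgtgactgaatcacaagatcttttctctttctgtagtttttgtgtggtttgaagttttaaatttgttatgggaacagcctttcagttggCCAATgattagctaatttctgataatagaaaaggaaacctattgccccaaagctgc
Cyba: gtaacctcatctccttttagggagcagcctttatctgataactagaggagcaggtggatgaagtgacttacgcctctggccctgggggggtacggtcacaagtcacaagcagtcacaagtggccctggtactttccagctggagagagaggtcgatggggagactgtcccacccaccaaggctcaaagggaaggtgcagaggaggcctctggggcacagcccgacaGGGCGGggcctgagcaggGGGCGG

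RefSeq promoter windows of 250 bases before to 50 after the start were at hand for 9 of the 10 genes, all except Sod3. The Nox4 window had a GC content of 68.3% and 24 CpG pairs, and the Cyba window 60.7% and 9 CpG pairs. The Cybb window had 35.3% and 1 CpG pair, against medians of 52.7% and 7 over 32851 mouse promoter windows. Cyba held 2 GC boxes, the first at -24 and the second at -6, and Nox4 held 1 at -24. GGGCGG occurred in 7 of the 9 windows and in 35.7% of all windows. In Cybb the only matches were CCAAT at -56 and, at position 10 after the start, the opposite-strand form of GAGGAA, the core recognised by the myeloid factor PU.1. GAGGAA occurred on either strand in 5 of the 9 windows and in 28.3% of all, and CCAAT in 5 of 9 and in 37.4%. TATAAA was found in 2 of the 9 windows, those of Sod1 and Nqo1, and in 13.6% of all. The core of the antioxidant response element, TGACNNNGC, was found only in Sod1 among the 9, and in 12.4% of all windows. These are letter matches in a short window and say nothing of binding.

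The deposited values are read counts per gene divided by a size factor for each library (normalized counts). Multiplying back gave whole reads for every gene in all 6 libraries, with 30887855 to 38600604 reads per library. Several features of the libraries touch the results below. Cmklr1, the gene altered in the labelled ChemR23-deficient recipients, was not lower there: its normalized counts were 2388, 1788 and 1551, against 1396, 1028 and 1720 in the labelled controls. The labels do not say what the e allele does to this transcript, so Cmklr1 counts do not check the labels by themselves. The fold changes in the authors' deposited table run the other way: for all 691 genes it calls, their sign is opposite to labelled ChemR23-deficient minus labelled control. All directions here follow the sample labels, as labelled ChemR23-deficient minus labelled control. Whether the sample labels or the order of the groups in that table are exchanged could not be settled here, and every direction below would turn if the labels were. Labelled ChemR23-deficient libraries 1 and 2 had a female pattern, with Xist at 16083 and 13146 and Ddx3y at 8.54 and 0. Labelled ChemR23-deficient library 3 had Ddx3y at 6374 and the controls at 6058 to 6796, the male pattern, so sex is partly confounded with group. Smooth muscle markers were high in all libraries, with a summed level of 1352170 to 1819250 for 10 genes. Of these 10, 8 had a log2 difference above 0, as did 10087 of all 20669 genes tested. The authors' deposited table called 1 of the 10, Myocd (adjusted p 0.00195), lower with its sign turned to the labels. It called 4.38% of 15771 genes. Erythroid markers were lower in all 3 labelled ChemR23-deficient libraries, with a summed level of 1703 to 11129 against 93221 to 289969.

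Across all 10 genes, none passed the limma test at an adjusted p under 0.05, where 28 of 20669 genes tested did, which is 0.135%. Of the 10, 4 had an unadjusted p under 0.05: Nox4 was lower in the labelled ChemR23-deficient libraries, and Cybb, Cyba and Sod3 were higher. The share of all genes at that level was 12.2%. The groups did not overlap for 2 of the 10 genes, Nox4 (lower) and Sod3 (higher), and for 17% of all genes tested. In the authors' deposited table, Nox4 was the only called gene of the 9 that have an adjusted p there, against 4.38% of 15771 genes.

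**Figure D1:**
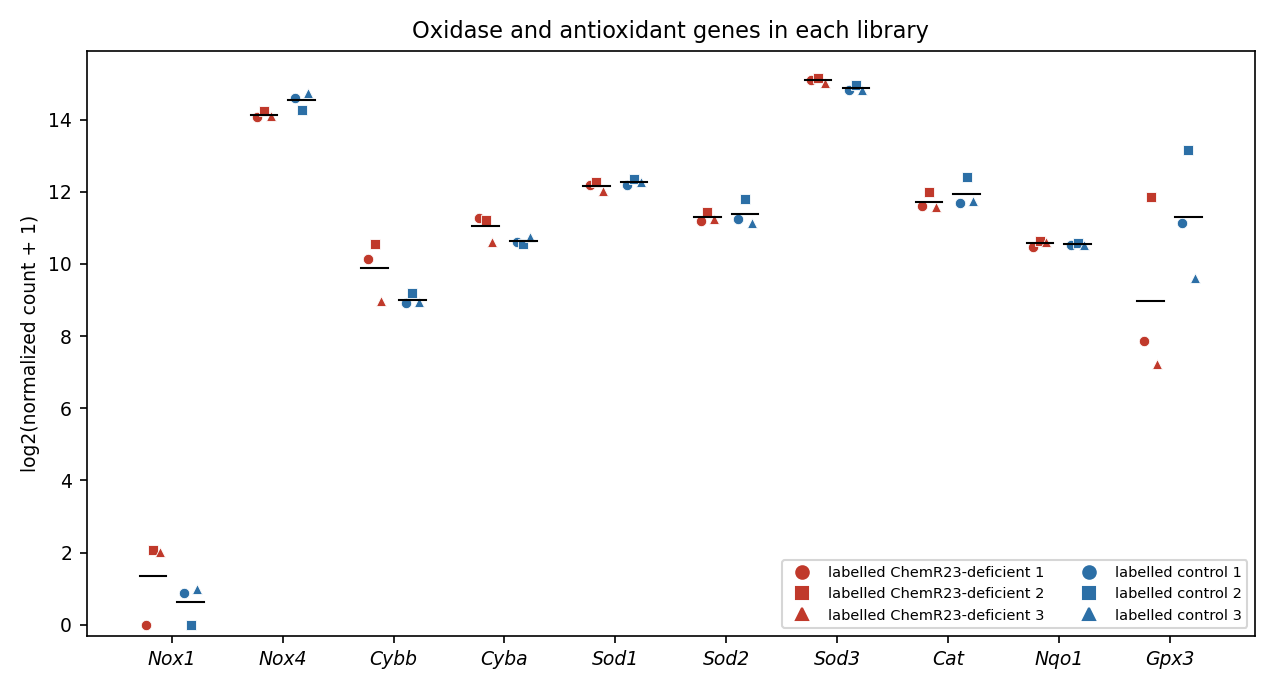
Log2 of the normalized count plus 1 (vertical axis) of each of the 10 genes in the 6 libraries. Red symbols are labelled ChemR23-deficient, blue symbols labelled control, each symbol shape is a replicate number that pairs nothing, and black bars are group means. Nox1 lies near 0, Gpx3 spreads over the widest range, and the Nox4 and Sod3 groups do not overlap.

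The genes differed far more from each other than between groups. Per kilobase of the principal transcript, mean normalized counts over the 6 libraries were highest for Sod3 at 8690 ± 841 (SD, n = 6). Sod1 followed at 7448 ± 547 and Nox4 at 5601 ± 1109, and the ranges of these neighbours overlap. Cyba came next at 2507 ± 599, below every Nox4 value. Gpx3 at 1689 ± 2136 cannot be ranked, because its range runs from 93.2 to 5687. Cat at 1427 ± 345 per kilobase overlapped the range of Cyba, Nqo1 at 973 ± 40.5 lay below every Cat value, and Sod2 at 446 ± 82.8 lay below every Nqo1 value. Cybb was the lowest of the usable genes at 164 ± 90.7. The order rests on transcript length for Sod1 and Nox4: over all annotated exons of the gene, Sod1 comes to 1202 and Nox4 to 2481 per kilobase, and Sod1 then lies below Cat.

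Nox1, the superoxide-forming oxidase of colon epithelium that is also described in cultured vascular smooth muscle, was at the detection floor. It had 0, 3 and 3 reads in the labelled ChemR23-deficient libraries and 1, 0 and 1 in the controls. A floor of 3 reads corresponds to normalized counts of 2.58 to 3.33, so no level or difference can be given. Per kilobase, Nox4 was at least 3923-fold to at least 6595-fold above that floor of 3 reads per library. The gene Cstf2, on the other strand, shares 399 bases of annotated exon with Nox1, and the labels do not say whether reads were counted by strand.

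Nox4 (chr7:87246096-87398710, GRCm38) was among the most abundant transcripts of the aorta, at percentile 99.2 of all genes tested by mean level. Its normalized counts were 17232, 19349 and 17422 in the labelled ChemR23-deficient libraries and 24929, 19852 and 27335 in the controls. All deficient-labelled values lay below all control values, although labelled ChemR23-deficient library 2 and labelled control library 2 were close. The means were 18001 ± 1171 and 24039 ± 3820 (SD, n = 3 each). The log2 difference was -0.41 (SE 0.12, 95% interval -0.69 to -0.13), with a limma adjusted p of 0.240. The authors' deposited table gave Nox4 an adjusted p of 0.0343, and DESeq2 on the recovered reads gave -0.42 with an adjusted p of 0.0341, where 4.4% of 16201 genes were called. edgeR called 1 of 20669 genes (0.00484%), which was not Nox4 or any other of the 10. Without the 2 libraries of female pattern, the difference was -0.45 (interval -0.96 to 0.06), from a single labelled ChemR23-deficient library against 3 controls.

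Cybb, the phagocyte oxidase subunit on the X chromosome (chrX:9435252-9487771), was higher in 2 of the 3 labelled ChemR23-deficient libraries. Its normalized counts were 1117, 1504 and 502 there, and 481, 582 and 490 in the controls. Library 3 of the deficient-labelled group lay inside the control range, so the groups overlap. The means were 1041 ± 505 and 518 ± 56.1, the log2 difference was 0.87 (SE 0.35, interval 0.06 to 1.68) and the limma adjusted p was 0.378. Cyba (chr8:122424776-122432930) showed the same split of libraries, at 2481, 2385 and 1568 against 1555, 1501 and 1701. Its means were 2145 ± 502 and 1586 ± 104, and its log2 difference was 0.41 (SE 0.17, interval 0.02 to 0.79, limma adjusted p 0.388). Labelled ChemR23-deficient library 3 decided both values. Without it, Cybb differed by 1.33 (limma adjusted p 0.0113) and Cyba by 0.62 (limma adjusted p 0.0190), where 427 genes (2.07%) were called. That comparison sets libraries of female pattern against libraries of male pattern, so sex and group cannot be told apart in it. In library 3 alone against the controls, the differences were -0.04 for Cybb (interval -0.47 to 0.39) and -0.01 for Cyba (interval -0.31 to 0.29). The median difference of all 687 X-linked genes tested, over all 6 libraries, was -0.007. That fit includes library 3 of male pattern, so it does not compare the sexes, and an effect of sex on Cybb was not tested.

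Summed macrophage markers were high in the same libraries as both genes. Of the 16 markers, 13 had a difference above 0, as did 10087 of all 20669 genes tested. The summed level of 16 markers was 39973, 56285 and 14856 in the labelled ChemR23-deficient libraries and 12353 to 18303 in the controls, and none of the 16 was at 0 in any library. At an unadjusted p under 0.05, 6 of the 16 were higher and 1 was lower, where 1315 of all 20669 genes were higher and 1197 lower, and none passed the adjusted limma test. Cd68, a lysosomal protein of macrophages, was at 1807, 2050 and 572 against 256 to 321, and Lyz2, which encodes lysozyme, at 16075, 25364 and 4270 against 2576 to 4854. In labelled ChemR23-deficient library 2, Lyz2 alone held 25364 of the marker sum of 56285. Not every marker went this way: in the authors' deposited table, with its sign turned to the labels, Mertk, Mrc1 and Cd14 were lower. Labelled ChemR23-deficient libraries 1 and 2 were high in the marker sum as in Cybb and Cyba. Unlike these genes, Cd68 was above every control in library 3 too, by 0.95 over the control mean in log2. In bulk tissue, more cells of a type and more RNA per cell cannot be told apart, and the part of macrophage content in the Cybb and Cyba values was not tested. The authors describe the tissue as enriched for smooth muscle and endothelium, and 10 endothelial markers summed to 81282 to 102201 and 79967 to 110352 in the 2 groups.

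**Figure D2:**
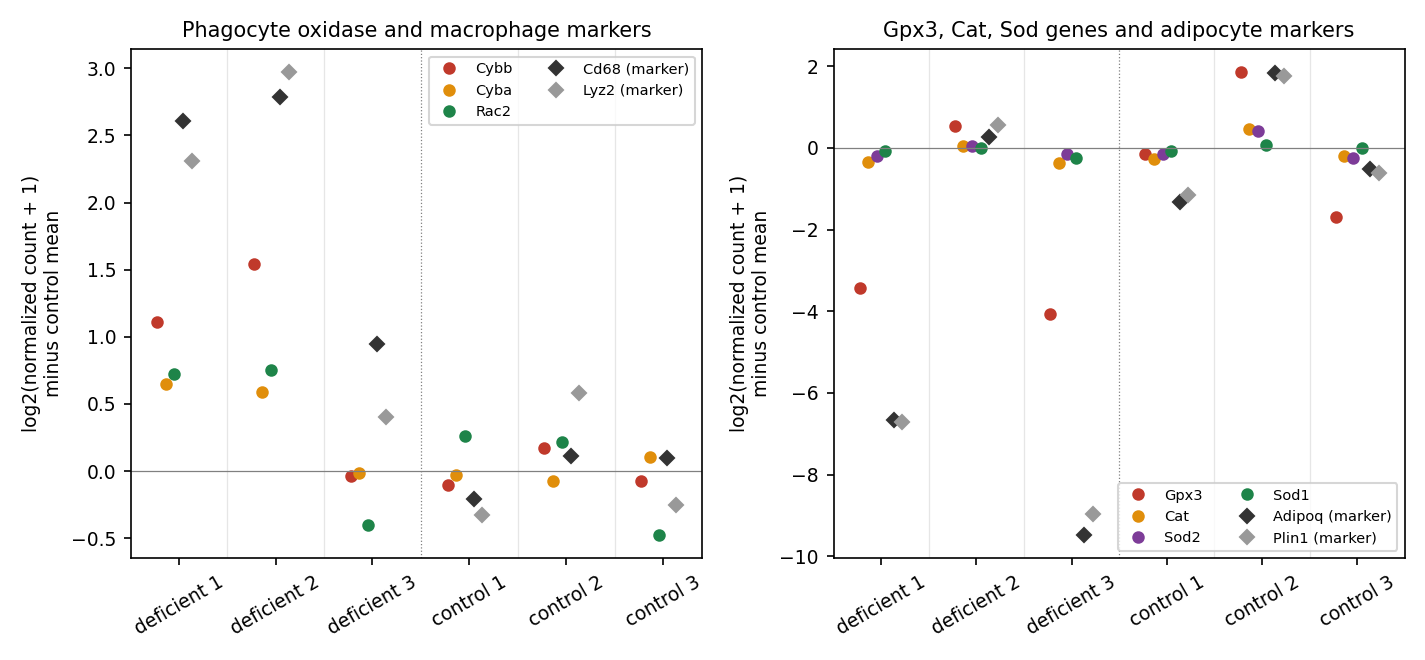
Log2 of the normalized count plus 1, minus the mean of the labelled controls (vertical axis), for each library (horizontal axis). The left panel shows Cybb, Cyba and Rac2 with the macrophage markers Cd68 and Lyz2, which were high together in labelled ChemR23-deficient libraries 1 and 2. The right panel shows Gpx3, Cat, Sod2 and Sod1 with the adipocyte markers Adipoq and Plin1. Gpx3 and both markers were low in labelled ChemR23-deficient libraries 1 and 3 and high in labelled control library 2.

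Nox4 remained the leading catalytic oxidase in every library. It made up 94.2% to 97.7% of the summed Nox1, Nox4 and Cybb level per kilobase in the labelled ChemR23-deficient libraries, and 97.7% to 98.6% in the controls. The share of Cybb was 4.87%, 5.78% and 2.23% against 1.40% to 2.26%, and the groups overlap at deficient-labelled library 3 and labelled control library 2. Within libraries, which removes the size factor, the log2 ratio of Cybb to Nox4 was -4.25 ± 0.76 in the labelled ChemR23-deficient libraries and -5.53 ± 0.38 in the controls. The difference of 1.28 had an exact two-sided permutation p of 0.2 (adjusted p 0.4 over 8 ratios), and 3 libraries against 3 cannot go below 0.1. With only the 4 libraries of male pattern the difference was 0.41. The ratio of Cybb to its partner Cyba differed by 0.46 on the log2 scale, with an exact permutation p of 0.2, and by 0.22 without labelled ChemR23-deficient library 2 and 0.71 without library 3 of that group.

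Sod3, the extracellular superoxide dismutase that binds to the matrix of the arterial wall (chr5:52363791-52371418), stood at percentile 99.5 of all genes tested by mean level. Its normalized counts were 35314, 36347 and 33346 in the labelled ChemR23-deficient libraries and 28726, 32062 and 29101 in the controls. Every deficient-labelled value lay above every control value, by a narrow gap. The means were 35003 ± 1525 and 29963 ± 1827, the log2 difference was 0.23 (SE 0.08, interval 0.05 to 0.40) and the limma adjusted p was 0.306. The authors' deposited table gave Sod3 an adjusted p of 0.121. Leaving out any single library kept the difference between 0.20 and 0.27. With only the libraries of male pattern it was 0.16, from a single labelled ChemR23-deficient library.

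Sod1, the cytosolic copper-zinc enzyme (chr16:90220754-90226329), was at 4677, 4940 and 4177 against 4706, 5213 and 4929, and the groups overlap. Its log2 difference was -0.11 (SE 0.08, interval -0.30 to 0.08, limma adjusted p 0.654). It was -0.04 without labelled ChemR23-deficient library 3, -0.07 without labelled control library 2 and -0.24 with only the libraries of male pattern. Sod2, the mitochondrial manganese enzyme (chr17:13006846-13040063), was at 2344, 2760 and 2407 against 2417, 3539 and 2233. Labelled control library 2 was the highest for Sod2, and the difference of -0.10 (SE 0.17, interval -0.48 to 0.29, limma adjusted p 0.867) turned to 0.10 without it. The interval of Sod1 excludes a positive difference as large as the estimate for Sod3, and that of Sod2 does not.

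The groups did not overlap in the ratio of the Sod3 to the Sod1 transcript, as they did not in Sod3 alone. The log2 ratio of Sod3 to Sod1 was 2.916, 2.879 and 2.997 in the labelled ChemR23-deficient libraries and 2.609, 2.620 and 2.561 in the controls. The means were 2.93 ± 0.060 and 2.60 ± 0.031, and the difference of 0.33 was several times the spread between libraries. Its exact permutation p was 0.1, the smallest that 3 against 3 allows, and 0.4 after adjustment over the 8 ratios. It was the only ratio of the 8 whose groups did not overlap. The ratio of Sod2 to Sod1 differed by 0.010 with an exact permutation p of 1.0.

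Catalase, the peroxisomal enzyme that splits hydrogen peroxide (Cat, chr2:103453849-103485160), was at 3123, 4050 and 3047 in the labelled ChemR23-deficient libraries and 3278, 5418 and 3451 in the controls. The highest library of each group was library 2, and the groups overlap. The log2 difference was -0.22 (SE 0.20, interval -0.68 to 0.23, limma adjusted p 0.709), and it was 0.0060 without labelled control library 2. The ratio of Cat to Sod2 differed by -0.13 on the log2 scale (exact permutation p 0.2).

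Gpx3, the secreted glutathione peroxidase (chr11:54902453-54910377), varied most of the 9 usable genes. Its normalized counts were 232, 3679 and 149 in the labelled ChemR23-deficient libraries and 2252, 9065 and 780 in the controls, and the highest was 61.0-fold above the lowest. The groups overlap, because labelled ChemR23-deficient library 2 exceeded labelled controls 1 and 3. The means were 1353 ± 2015 and 4032 ± 4420, the log2 difference was -2.32 (SE 1.27, interval -5.25 to 0.61) and the limma adjusted p was 0.522. The range of values within each group was wider than the difference between the group means.

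Adipocyte markers followed the same libraries. Adipoq, which encodes the fat hormone adiponectin, was at 13.3, 1711 and 1.01 in the labelled ChemR23-deficient libraries and 575, 5082 and 1010 in the controls. Plin1, a lipid droplet protein, was at 8.54, 1487 and 1.01 against 452, 3435 and 658. The 10 adipocyte markers summed to 13919 to 31993 and 23321 to 64128, of which Plin4 alone held 11427 to 16649 in every library. Of the 10, 6 were lower at an unadjusted p under 0.05, where 1197 of all 20669 genes were lower, and none passed the adjusted limma test. Lep was at 0 in labelled ChemR23-deficient libraries 1 and 3, Retn in library 3 of that group and Ucp1 in labelled control library 3. The order of the 6 libraries by Cat was the same as by Adipoq, and by Gpx3 it differed only in that labelled controls 1 and 3 changed places. By the labels the adventitia was removed, and 10 markers of adventitial fibroblasts, none at 0 in any library, summed to 19371 to 29599 against 26199 to 34913, with 4 lower and none higher at an unadjusted p under 0.05. The part of residual fat or adventitia in the Gpx3 and Cat values was not tested.

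Nqo1 (chr8:107388225-107403206) was the flattest of the 10 genes, with a coefficient of variation of 4.16% over all 6 libraries. Its normalized counts were 1424, 1604 and 1547 against 1476, 1533 and 1485, and the groups overlap. The log2 difference was 0.02 (SE 0.07, interval -0.14 to 0.19, limma adjusted p 0.932), so an increase beyond 0.19 on the log2 scale lies outside the interval. The ratio of Nqo1 to Cat differed by 0.25 with an exact permutation p of 0.4, and by 0.035 without labelled control library 2.

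**Figure D3:**
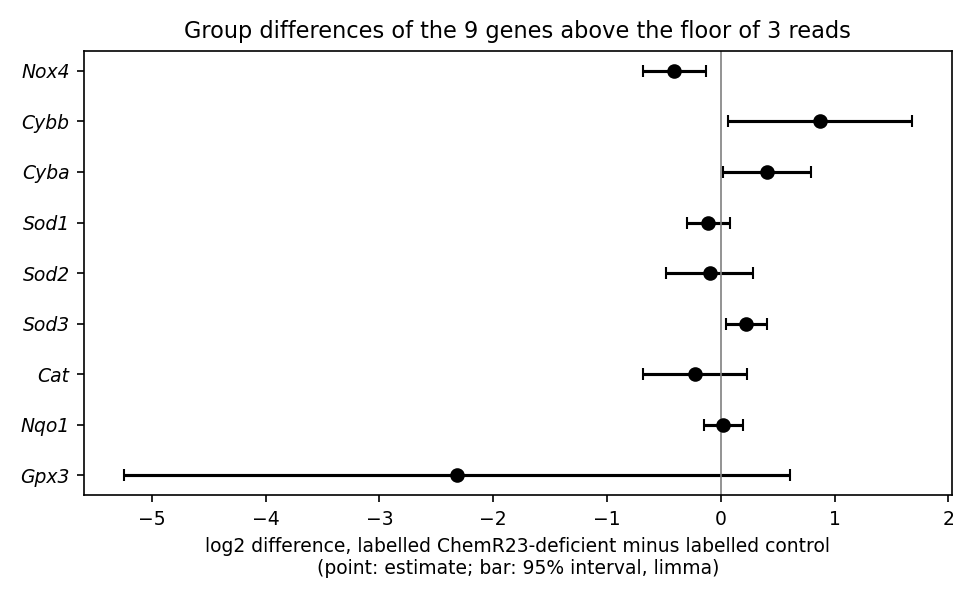
Log2 difference of the group means, labelled ChemR23-deficient minus labelled control (horizontal axis), for the 9 genes above the floor of 3 reads. Points are limma estimates and bars are 95% intervals, 3 libraries per group. The intervals of Nox4, Cybb, Cyba and Sod3 exclude 0 before adjustment for multiple testing, and that of Gpx3 runs from -5.25 to 0.61.

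The surroundings of these genes were described with 100 further genes of redox metabolism in 7 lists, of which 93 were tested. None passed the limma test at an adjusted p under 0.05. At an unadjusted p under 0.05, 13 were higher and 4 lower (18.3% of 93, against 12.2% of all genes tested). For 26 of the 93 (28%, against 17% of all) the groups did not overlap, 16 higher and 10 lower. The median log2 difference of the 93 was 0.05, against -0.006 over all genes tested. The authors' deposited table called 4 of the 88 that have an adjusted p there, against 4.38% of all 15771 genes with one. With its sign turned to the labels, Gpx7 and Hmox1 were among those higher, and Mafk was lower.

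Among 13 tested partners of the NADPH oxidases, 9 had a difference above 0, where 10087 of all 20669 genes did. The median was 0.24, the value of Noxo1, which shares 70.4% of its annotated exon bases with Tbl3 on the other strand. The 13 include Duox1, Duox2 and Duoxa1, whose mean normalized counts of 1.2 to 2.8 are near the floor. The organizers Sh3pxd2b and Sh3pxd2a, scaffold proteins of podosomes, differed by 0.25 (limma adjusted p 0.316) and 0.19 (limma adjusted p 0.475). Rac1, the ubiquitous small GTPase of these complexes, was between 8048 and 8473 in all 6 libraries and differed by 0.05 (limma adjusted p 0.803). Rac2, its counterpart in blood cells, was at 310, 316 and 142 against 225, 217 and 134, with high values in the same labelled ChemR23-deficient libraries as Cybb. Rac2 was chosen after its values were seen.

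Other oxidases varied in both directions, with a median of -0.07 over 13 tested genes. Nos2, the inducible nitric oxide synthase, was at 37.98, 20.50 and 31.34 against 12.91, 11.09 and 10.02, a log2 difference of 1.29 (SE 0.34, limma adjusted p 0.191) at a low level. The lipoxygenases Alox12 (-0.53, limma adjusted p 0.194) and Alox5 (-1.95, limma adjusted p 0.208) were lower in every deficient-labelled library than in every control. Of the 13 genes, 6 did not overlap between groups (3 higher, 3 lower), against 17% of all genes tested. Neutrophil markers were low in the deficient-labelled libraries, where their 10 genes summed to 199 to 314 against 610 to 1180. Of the 8 tested, 6 were lower at an unadjusted p under 0.05, where 1197 of all 20669 genes were lower. The adjusted limma test was passed by 1 (Cxcr2), and by 0.135% of all genes. The number of these 10 genes at 0 was 4, 3 and 1 in the deficient-labelled libraries and 1 in each control, and their part in the lipoxygenase values was not tested. Aoc3, the vascular amine oxidase of smooth muscle and fat, was at 17557, 17201 and 20594 against 15957, 14745 and 14094 (0.30, limma adjusted p 0.243). Nos3, the endothelial synthase, overlapped between groups, with a difference of 0.20 (limma adjusted p 0.777).

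The copper chaperones that load Sod1 and Sod3 differed little. Atp7a, the copper pump that supplies the secretory pathway in which Sod3 matures, was at 683, 630 and 613 against 768, 711 and 700, a difference of -0.18 (limma adjusted p 0.460). Its groups did not overlap, in the direction opposite to Sod3. Ccs, the chaperone of Sod1, differed by -0.09 (limma adjusted p 0.737), and Atox1, the cytosolic copper carrier, by 0.11 (limma adjusted p 0.768). Atp7b was at or near the floor of 3 reads.

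Of 10 tested peroxidases and peroxiredoxins, 8 had a difference above 0, where 10087 of all 20669 genes did. The median was 0.06, and Prdx5 (0.016), Prdx2 (0.035) and Prdx3 (0.043) were close to 0. Gpx7, a glutathione peroxidase of the endoplasmic reticulum, was at 759, 860 and 790 against 608, 617 and 585. These groups were well separated, with a log2 difference of 0.41 (SE 0.08, limma adjusted p 0.116), and the authors' deposited table gave an adjusted p of 0.00883. Gpx1, the main cytosolic form (0.14, limma adjusted p 0.704), and Prdx1, a cytosolic peroxiredoxin (0.17, limma adjusted p 0.480), overlapped between groups. Whether the difference of Gpx7 itself differs from that of Gpx3 was not tested.

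The thioredoxin and glutathione genes had a median of 0.08 over 23 tested. Slc7a11, the cystine importer that feeds glutathione synthesis, was at 26.6, 22.7 and 38.4 against 8.60, 8.87 and 17.03 (1.30, limma adjusted p 0.237). Srxn1, which repairs oxidised peroxiredoxins, differed by 0.25 (limma adjusted p 0.367), and Msrb1, a methionine sulfoxide reductase, by 0.29 (limma adjusted p 0.415). Txnip, the inhibitor of thioredoxin, differed by -0.16 (limma adjusted p 0.833), and Msrb3 by 0.08 (limma adjusted p 0.742).

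Nqo1 is commonly read with other NRF2 targets, which were listed together with regulators of NRF2. Of 27 tested targets and regulators, 6 were higher and 1, the regulator Mafk, lower at an unadjusted p under 0.05 (all genes 12.2%), with a median of 0.05. Hmox1, which encodes the haem-degrading enzyme haem oxygenase 1, was at 611, 1183 and 437 against 197, 331 and 251. All deficient-labelled values were above all controls, with a log2 difference of 1.42 (SE 0.35, limma adjusted p 0.171), and the authors' deposited table gave 0.000303. Its order over the deficient-labelled libraries was that of Cd68 and Lyz2, and library 3 alone differed from the controls by 0.78 (interval -0.04 to 1.60). The part of macrophage content in the Hmox1 values was not tested. Mafk, a small MAF partner of NRF2, was at 3760, 3493 and 4501 against 5427, 4960 and 5689 (-0.46, SE 0.10, limma adjusted p 0.145), and the authors' deposited table gave 0.00777. Library 3 alone differed from the controls by -0.25 (interval -0.54 to 0.04) in Mafk. Nfe2l2, the gene of NRF2 itself, was at 3398, 3519 and 3303 against 2908, 2953 and 3115, a difference of 0.19 (limma adjusted p 0.297). Gclc, which makes glutathione precursors, differed by 0.08 (limma adjusted p 0.689). Fth1, the ferritin heavy chain, differed by 0.07 (limma adjusted p 0.840), and Gstm1, a glutathione transferase, by -0.16 (limma adjusted p 0.424). Nfe2l2 and Gclc were chosen after their values were seen.

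Among 8 paraoxonases and selenoproteins the median was 0.04. Pon2, an intracellular antioxidant lactonase, was at 3200, 3395 and 3024 against 2845, 2831 and 2883 (0.17, limma adjusted p 0.378). Pon1 was at 0.949, 114 and 0 against 40.4, 194 and 54.1, with the same low libraries as Gpx3 (limma adjusted p 0.428). Selenop, the plasma selenium carrier, differed by 0.06 (limma adjusted p 0.941), Selenom by 0.12 (limma adjusted p 0.542) and Selenow by 0.05 (limma adjusted p 0.856).

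**Figure D4:**
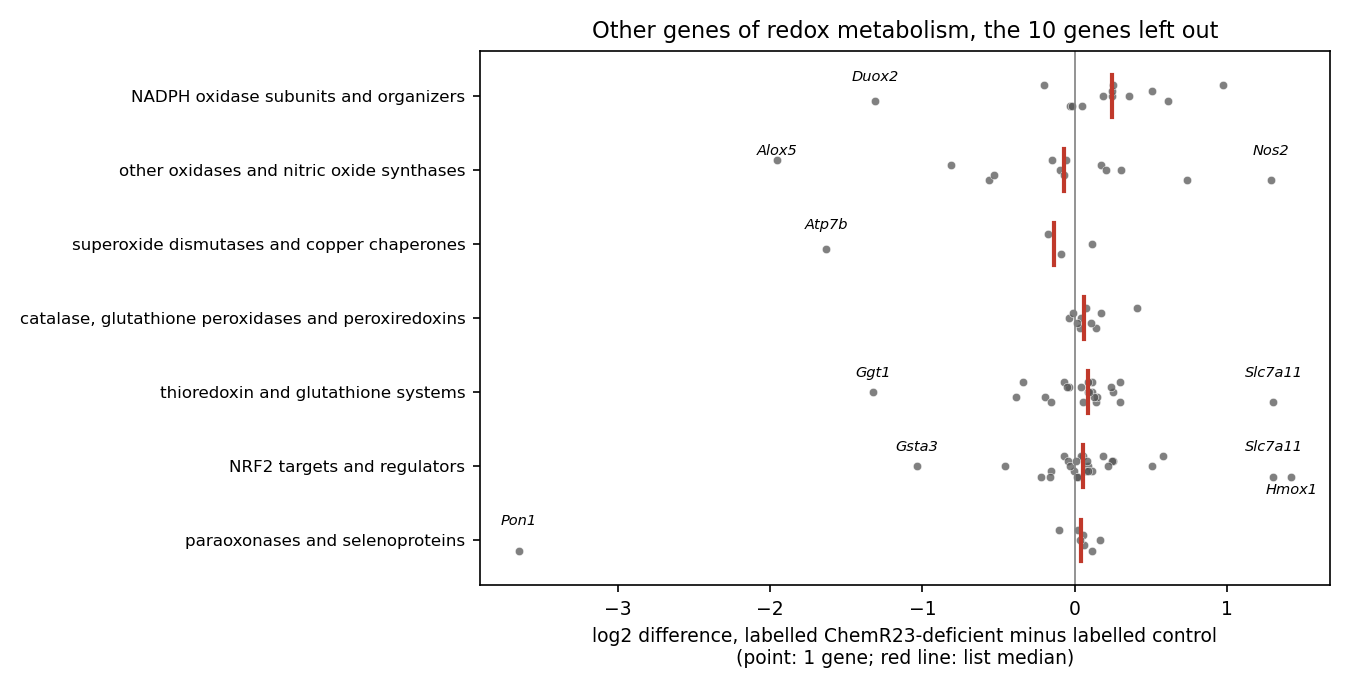
Log2 difference, labelled ChemR23-deficient minus labelled control (horizontal axis), of the 93 tested genes in the 7 lists of redox genes (vertical axis), with the 10 genes themselves left out. Each point is a gene, genes in 2 lists appear in both, and red lines are list medians, which lie between -0.13 and 0.24. Named genes differ by more than 1 on the log2 scale, and none passed the limma test.

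Which other genes behaved most like each of them was asked by the smallest root mean square difference in centred log2 values over the 6 libraries, among 11158 genes with a mean of at least 100. These are descriptions over 6 shared libraries. The nearest to Nox4 was Bbs12 (distance 0.070), and the nearest to Cyba was Sh3bp2 (0.044). The nearest to Cybb were Irf5 (0.085), a transcription factor of macrophages, and Pltp (0.092), a phospholipid transfer protein. Sod3 was nearest to Ndst1 (0.023), an enzyme of heparan sulfate synthesis, and Gstm4 (0.024). Sod1 was nearest to Tbca (0.019) and Sod2 to Fh1 (0.031), which encodes mitochondrial fumarase. Cat was nearest to Aacs (0.045) and Slc25a1 (0.069), both of lipid synthesis, Nqo1 to Zfp40 (0.014) and Gpx3 to Prkar2b (0.386). The values of Prkar2b, a protein kinase A subunit abundant in fat, were 57.0, 1798 and 48.5 against 510, 2495 and 310, low in the same libraries as Gpx3.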

How the data were processed

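RNA of 6 mouse aorta libraries, 3 labelled ChemR23-deficient and 3 labelled control, was analysed from 1 deposited table. On GRCm38, reads went through HISAT2 2.2.1, featureCounts 2.0.1 and DESeq2 1.36.0 (with R 4.2.0 and bcl2fastq 2.20), per the submitters' processing notes, and per the labels' protocols the libraries were stranded mRNA, read as paired-end 50 bp. Neither the annotation nor whether strand was used in counting is stated. The deposited signal values are read counts divided by a size factor for each library. The authors' deposited table also gives log2 fold changes with standard errors (score columns), p-values and adjusted p-values, which are quoted only as theirs; its 2 columns of group means were not used.

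Values were log2 transformed with a pseudocount of 1, and 20669 genes with a mean of at least 1 were fitted with limma 3.58.1 (trended variance, two-sided, Benjamini-Hochberg over all genes, threshold 0.05, R 4.3.3), on simulated data first. A fold change on this scale understates the change of low genes. Dividing by the value of 1 read gave whole reads (within 0.001) for 100% of values, on which edgeR 4.0.16 called 1 gene and DESeq2 1.42.0 called 713. Levels between genes are per kilobase of the longest principal transcript of GENCODE vM21. Ratios between genes were tested by exact permutation over libraries. The floor is 3 reads and covers counting error only. Replicates are numbered in order of deposition.

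The genes, lists and tests were chosen with earlier results of these data known. Named genes were all 10, and in each list of redox genes the 3 with the lowest p and the 2 with the highest mean. For each of the 10, the 2 most alike were sought, of which the text gives the nearest. Exceptions are stated, and marker genes were not named by this rule. One result that the rule names is not reported here.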

Additional observations from a re-analysis of the deposited data

How the results depend on the processing

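Over 15 alternatives, 127 of 135 log2 differences (9 genes above the floor) kept their direction and their side of the limma threshold, 5 changed direction and 3 passed the threshold. With other pseudocounts, filters, TMM scaling, variance models, edgeR or DESeq2, Nox4 stayed between -0.42 and -0.40, Sod3 between 0.22 and 0.23, Cybb between 0.87 and 1.02 and Gpx3 between -2.32 and -1.57. Leaving out each library in turn gave -0.54 to -0.31 for Nox4, 0.54 to 1.33 for Cybb, 0.29 to 0.62 for Cyba, -0.16 to -0.04 for Sod1, -3.75 to -1.40 for Gpx3, -0.23 to 0.10 for Sod2, -0.36 to 0.0060 for Cat and -0.013 to 0.072 for Nqo1. The direction changed for Sod2 (0.104) and Cat (0.0060) without labelled control library 2, for Nqo1 (-0.013) without labelled ChemR23-deficient library 2, and for Cybb (-0.038), Cyba (-0.014) and their ratio (-0.024) with only the libraries of Y-linked expression, which leave 1 labelled ChemR23-deficient library, assumed to vary like the controls. The ratio of Sod2 to Sod1 ranged from -0.117 to 0.175 and that of Nqo1 to Cat from 0.035 to 0.37 with 1 library left out. Genes called numbered 91 with no filter on low values, 1 with a mean of at least 10, 1 with edgeR, 713 with DESeq2, 6 without the trend, 0 with only the libraries of Y-linked expression and 0 to 427 with 1 library left out, against 28. Of the 10 genes, DESeq2 called 1 (Nox4), and leaving out 1 library called 0 to 2, Cybb and Cyba without labelled ChemR23-deficient library 3. Over all genes, DESeq2 called 4.4% of 16201, and the fit without labelled ChemR23-deficient library 3 called 2.07% of 20669. Of the 100 pathway genes, DESeq2 called 5, among them Hmox1, Mafk, Gpx7 and Alox5. Leaving out 1 library called 0 to 4 of them, the most without labelled ChemR23-deficient library 3, with Mafk, Ftl1 and Hmox1 among them. The cause of these changes was not tested. No paired analysis was possible because the replicate numbers follow the order of deposition and the labels tie no library of one group to a library of the other. With 3 libraries a group, depth limits only Nox1 and the rarest pathway genes.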
